A study of Mus musculus with 8 samples.

Results

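After BMP9/10, 570 SMAD4 peaks in MS1 cells lay beside protein-coding genes, between 1 and 20 kb from the nearest gene body, and overlapped no peak called in cells without the ligand. Absence from that list does not exclude weaker SMAD4 binding there. They were picked by rule from the peak list of the stimulated cells: on chromosomes 1 to 19, X or Y, sharing not even 1 bp with a peak of the unstimulated list, with the summit outside every RefSeq protein-coding gene. They are 13.2% of the 4324 nuclear stimulated peaks (4333 peaks in all), and 75% of those 4324 overlapped no unstimulated peak. They are called qualifying peaks here, and stimulated peaks that do overlap an unstimulated one are called shared. Presence in one list and absence from the other therefore chose them, and their heights and widths are given below as a description with no test.

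MS1 is an endothelial line of mouse pancreatic islets. Both groups went without serum for 24 h, after which one received new medium and the other BMP9/10 protein at 1 ng/mL. For each condition 2 SMAD4 immunoprecipitates (IP) and 2 inputs of genomic DNA were sequenced, 8 libraries in all, and the authors pooled like libraries before calling peaks. The unstimulated list of 1133 peaks stood on 52971023 IP tags and the stimulated list on 41044888. Stimulated IP libraries have KD in their titles, a term the labels leave unexplained, so stimulated values are those of the libraries labelled as such. With 1 pooled list per condition there are no replicate values and no replicate check, and every interval below covers counting error only. Expression was not measured, so the endothelial markers of the line could not be checked.

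BMP9 and BMP10 bind ALK1 with its co-receptor endoglin on endothelial cells, and the receptors phosphorylate SMAD1, SMAD5 and SMAD9. These join SMAD4, enter the nucleus and bind DNA. SMAD4 itself contacts the short SMAD box GTCT, while BMP-activated SMADs favour GC-rich sites such as GGCGCC. Typical target genes are the Id genes and the inhibitory SMADs, which feed back on the pathway.

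Base sequence could be read for those parts of the peaks that fall inside RefSeq promoter windows (GRCm38.p6, the assembly behind mm10; 250 bases before to 50 after a transcript start). As every such peak is more than 1 kb from protein-coding genes, these were all promoters of lncRNA genes, and 7 of the 570 peaks reached one. The 4 stretches shown are the 3 that include the summit and the 1 with a GC-rich site. They are on the forward strand, 5′ to 3′, and capitals mark the SMAD box GTCT and the sites GGCGCC and GGAGCC on either strand.

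Gm40164 start, 13.9 kb from Ccn1, chr3:145632960-145633095: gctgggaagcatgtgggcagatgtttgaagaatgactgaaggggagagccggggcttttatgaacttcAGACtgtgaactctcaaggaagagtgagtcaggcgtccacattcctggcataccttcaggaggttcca
1700020M21Rik start, 18.2 kb from Ctnnb1, chr9:120915201-120915325: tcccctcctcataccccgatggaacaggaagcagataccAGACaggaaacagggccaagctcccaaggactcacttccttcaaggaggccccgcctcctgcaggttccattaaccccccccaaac
Gm9875 start, 14.0 kb from Trdmt1, chr2:13558653-13558886: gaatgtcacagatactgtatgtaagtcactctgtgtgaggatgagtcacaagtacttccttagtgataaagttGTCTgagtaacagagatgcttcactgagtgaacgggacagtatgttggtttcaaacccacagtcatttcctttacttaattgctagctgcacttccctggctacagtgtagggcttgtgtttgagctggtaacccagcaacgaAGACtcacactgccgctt
Gm13010 start, 1.33 kb from Hspg2, chr4:137467301-137467392: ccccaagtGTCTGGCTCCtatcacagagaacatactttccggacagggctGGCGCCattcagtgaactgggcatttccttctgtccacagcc

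The Gm40164 stretch is the whole 136 bp peak nearest to Ccn1, the gene of a matricellular protein induced by TGF-beta, with its summit 90 bases before the lncRNA start. The fold enrichment there (IP over local input background, the authors' value) was 4.17 at a pileup of 24 tags. The peak at Gm9875 had 3.8, the one at 1700020M21Rik 4.4 and the one at Gm13010 4.06. Searched on both strands, GTCT was present in 5 of the 7 stretches, which are 63 to 234 bases long, and in 88.0% of 32817 RefSeq promoter windows of 300 bases. GGCGCC and GGAGCC (here as GGCTCC) were each present in 1 stretch, both at Gm13010, and in 11.9% and 30.8% of promoters. The spaced element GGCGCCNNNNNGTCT, which contains 2 of the other motifs, was in 0 stretches and 0.0731% of promoters, and the palindrome GTCTAGAC, which contains GTCT, in 0 and 0.213%. The AP-1 site TGANTCA occurred in 2 stretches, those near Ccn1 and Trdmt1, and in 7.81% of promoters. Of the other motifs, GATAA was in 1 stretch (25.4% of promoters), ACAAT in 0 (31.0%), GTAAACA in 0 (3.65%), GGAATG in 1 (14.7%), CANNTG in 4 (72.3%) and GGAAG in 6 (71.4%). Stretches are shorter than promoter windows, so their shares cannot be set against each other.

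Of 22 classical BMP target genes, 7 were nearest gene to at least 1 of these peaks (31.8%, 95% interval 13.9 to 54.9), against 2.28% of all 21883 protein-coding genes. Their 12 peaks had a median fold enrichment of 4.72, and the 570 had 4.29. With only peaks of a −log10 q of 10 or more, 3 of the 22 were left (13.6%; 0.589% of all genes), Hes1, Smad6 and Smad7. Without peaks under 150 bp wide 5 were left (22.7%; 1.54% of all genes). By fold enrichment the highest of the 12 peaks lay at Hes1, which encodes a transcriptional repressor used by both the Notch and BMP pathways. Any stimulated peak within 100 kb, shared ones included, had 13 of the 22 BMP targets as nearest gene, against 12.2% of all genes. A share above that of all genes was therefore not particular to the qualifying peaks. All gene lists here were chosen with earlier results of these data known, so their shares are a description with no test.

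At Hes1 (chromosome 16, gene body 30065357 to 30067796) 3 peaks qualified. A peak at 30070604 to 30071124, 3.12 kb beyond the high-coordinate end, had a fold enrichment of 8.5 and 33 tags (counting interval 22.7 to 46.3). Its neighbour at 30070290 to 30070395 had 6.65 and 24 tags. The peak on the other side, at 30063108 to 30063287, was lower, with 3.4 and 16 tags. Of the 9 stimulated peaks within 50 kb of Hes1, 3 were shared with unstimulated cells and all of those lay on the low-coordinate side. They had 3.6, 5.83 and 7.29 in the stimulated list and 3.0, 4.46 and 5.57 in the unstimulated list. The high-coordinate flank held only peaks of the stimulated list.

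Smad7 and Smad6 encode the inhibitory SMADs. Smad7 (chromosome 18, 75367365 to 75395935) had qualifying peaks on both sides. The peak at 75405621 to 75405855, 9.83 kb past the high-coordinate end, had 8.0 with 27 tags and was 30.1 kb from the nearest shared peak. On the low-coordinate side 2 peaks at 4.05 and 3.36 kb had 5.56 and 4.44, beside a shared peak of 10.0 (7.49 in the unstimulated list). Smad6 had 1 qualifying peak 8.27 kb upstream (chromosome 9, 64030225 to 64030610). It held 56 tags (interval 42.3 to 72.7) and a fold enrichment of 7.125, next to 5 shared peaks within 50 kb of the gene that ranged from 4.0 to 13.0. By pileup this was the second highest of the 570.

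The Id genes encode HLH proteins that block bHLH factors. Their qualifying peaks were low and close to shared ones. At Id3 the peak 2.22 kb downstream (chromosome 4, 136147569 to 136147742) had 4.09 with 13 tags, and an unstimulated peak began 248 bp from its edge, the smallest such gap among all 570. The shared peak beside it had 12.5. At Id2 the peak 4.64 kb upstream (chromosome 12, 25100549 to 25100770) had 4.25 with 16 tags, and the shared peak 1.81 kb away had 12.6. Whether such neighbours are separate sites was not tested. Atoh8, a bHLH factor induced through ALK1, had peaks 17.1 kb downstream (5.0) and 14.4 kb upstream (3.6). Bmper, an extracellular BMP modulator, had 1 of 2.89 at 3.13 kb upstream.

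**Figure D1:**
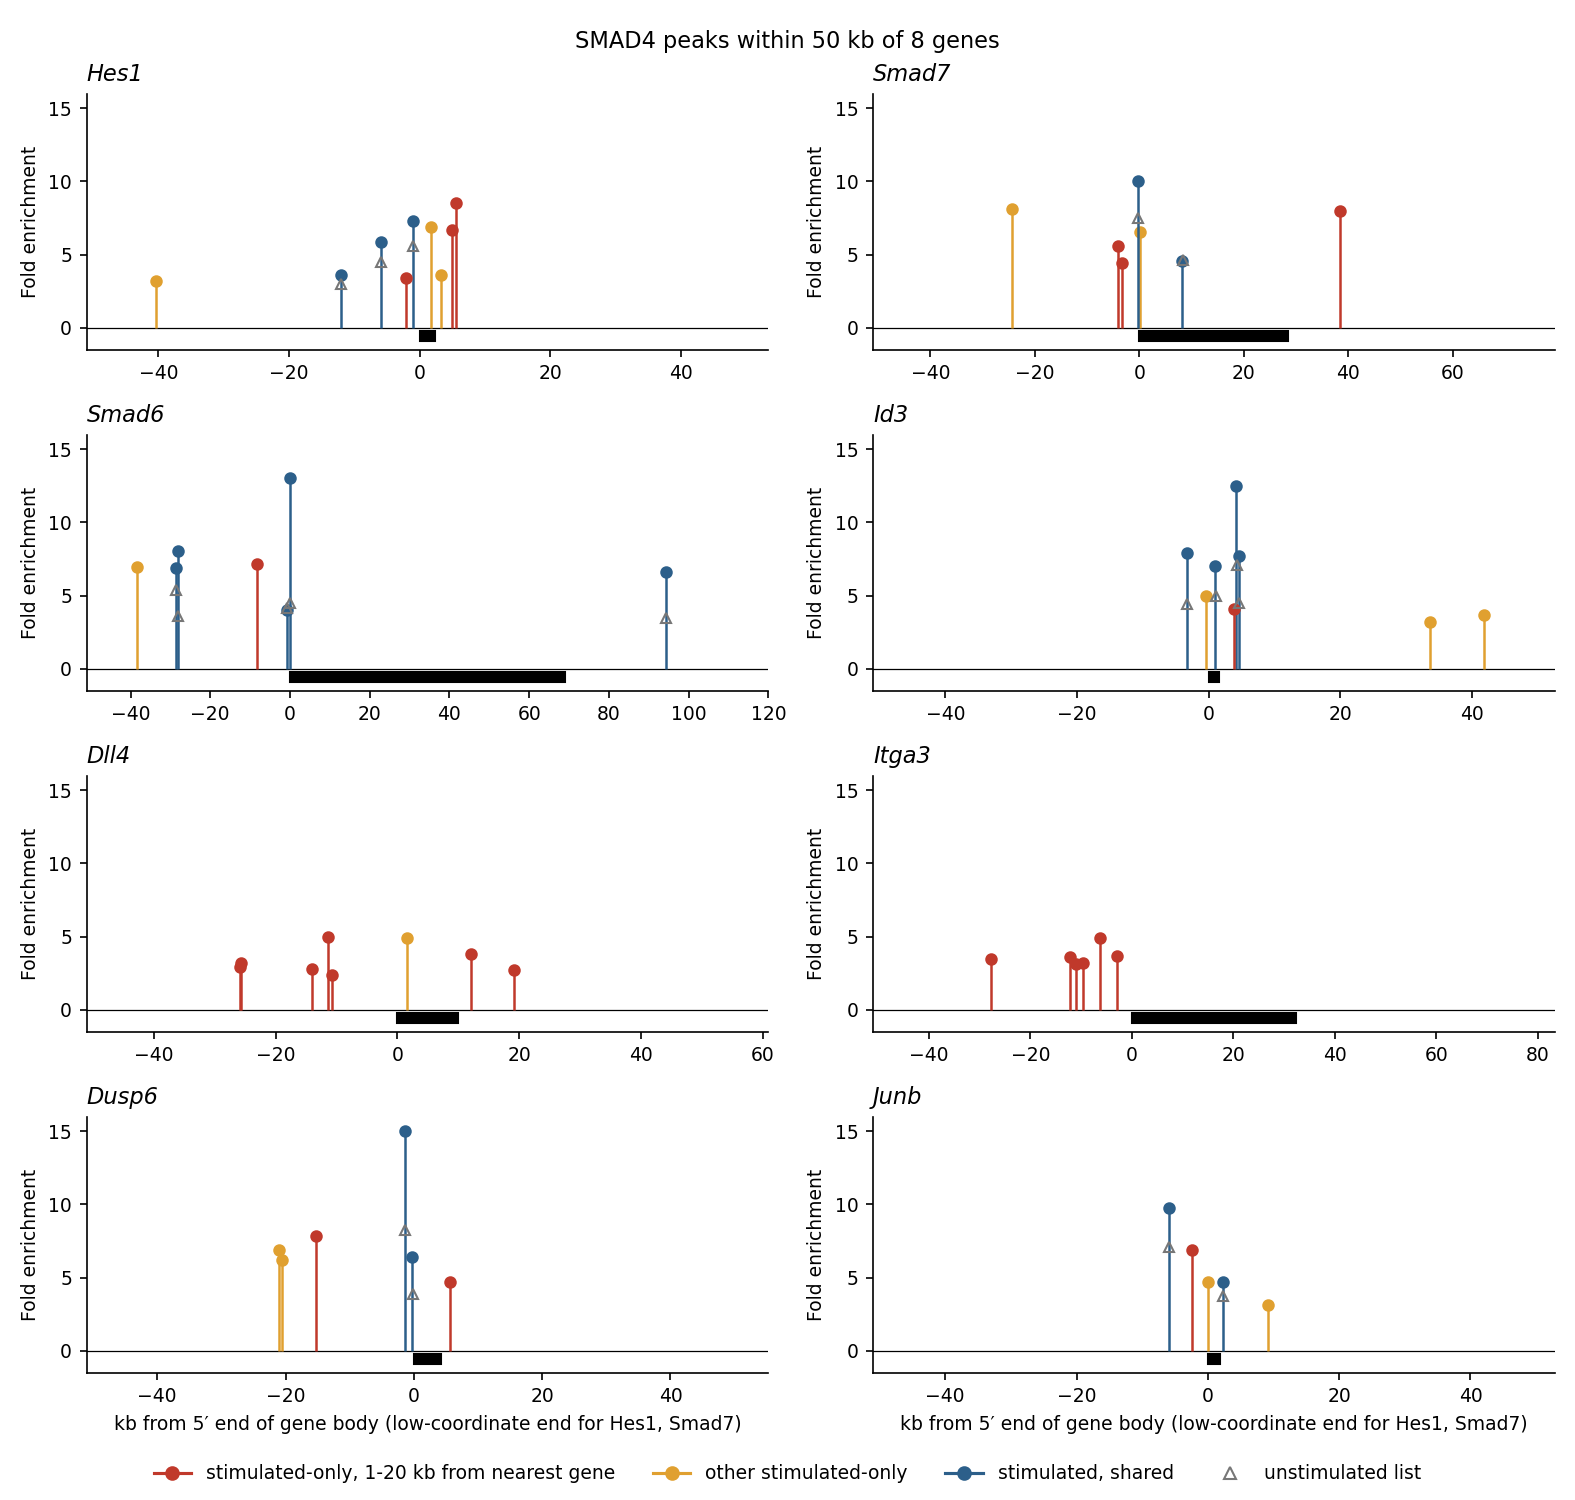
Fold enrichment (y axis) of each stimulated peak within 50 kb of 8 genes against position in kb from the 5′ end of the gene body (from its low-coordinate end for Hes1 and Smad7), with the gene body as a black bar. Red marks the stimulated-only peaks 1 to 20 kb from a gene, orange other stimulated-only peaks, blue stimulated peaks shared with unstimulated cells, and open triangles the unstimulated list. At Dll4 and Itga3 there are no blue points, while Smad6 has 5 and Id3 has 4.

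Dll4, the Notch ligand of arterial and tip endothelium, had many peaks around it. Within 50 kb of its gene body (chromosome 2, 119325784 to 119335666) lay 8 stimulated peaks, of which 7 qualified, 0 were shared and 1 was inside the gene. Dll4 was the nearest gene for 3 of them. Upstream, at 11.4 kb, the peak at 119314235 to 119314466 had 5.0 with 38 tags (interval 26.9 to 52.2), and the one at 10.8 kb had 2.36 with 32 tags. Downstream, at 2.12 kb, the peak had 3.82 with 25 tags. A further 3 were nearest to Vps18, a gene of vesicle tethering, with 2.8 to 3.18, and 1 to Chac1 with 2.7. The nearest shared peak was 1310 kb from the first Dll4 peak.

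Notch pathway genes with a qualifying peak were 4 of 20 (20%, 5.73 to 43.7; 2.28% of all genes). Beside Dll4 and Hes1 these were Notch4, an endothelial Notch receptor, with 5.25 at 2.62 kb upstream (chromosome 17, 34561591 to 34561785, 41 tags), and Nrarp, a feedback inhibitor of Notch, with 5.26 at 17.2 kb upstream (29 tags). The median over the 8 peaks of this list was 5.125. All 4 genes also had a qualifying peak among those with a −log10 q of 10 or more (20%, against 0.589% of all genes). Hes1 stands in both the BMP and Notch lists. Any stimulated peak within 100 kb had 9 of the 20 Notch genes as nearest gene, against 12.2% of all genes.

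In the VEGF pathway and tip cell list 6 of 20 genes had a qualifying peak (30%, 11.9 to 54.3), against 2.28% of all genes. At a −log10 q of 10 or more 3 were left (15%; 0.589% of all genes). Dusp6, which the next list also holds, was among the 6. With any stimulated peak within 100 kb counted, 14 of the 20 were a nearest gene, against 12.2% of all genes. Igfbp3, an IGF-binding protein of tip cells, had 6.67 with 39 tags, 19.9 kb upstream (chromosome 11, 7235247 to 7235490). Plxnd1, the semaphorin 3E receptor, had 4.89 with 43 tags at 11.5 kb upstream. Apln, the ligand of the apelin receptor, had 2 upstream peaks at 9.57 and 19.5 kb with 3.43 and 4.86. Esm1, a tip cell proteoglycan, had 3.22 at 7.33 kb upstream. Within 50 kb of Esm1 there were 3 stimulated peaks, all of them qualifying, and the other two were nearest to Gzmk with 5.64 and 4.57. Pgf, a VEGF family ligand, had 3.01 at 15.2 kb upstream, and 3 more qualifying peaks, counted for its neighbour Eif2b2, lay 23.9 to 31.4 kb from Pgf with 3.08 to 3.54.

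Immediate early AP-1 genes and feedback inhibitors of ERK signalling had the highest share. Of 22 genes on this list 9 had a qualifying peak (40.9%, 20.7 to 63.6), against 2.28% of all genes. Any stimulated peak within 100 kb had 17 of the 22 as nearest gene, against 12.2% of all genes. AP-1 is the dimer of FOS and JUN proteins, and DUSP and SPRED proteins damp ERK signalling. Junb had 6.90 with 39 tags at 2.43 kb upstream (chromosome 8, 84981061 to 84981406), between shared peaks of 4.7 and 9.79. Fosb had 5.12 at 10.0 kb, Fosl2 4.79 at 3.15 kb and Fos 3.71 at 18.6 kb, all upstream.

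Dusp6, an ERK phosphatase, had a peak of 7.83 with 46 tags (interval 33.7 to 61.4) at 15.3 kb upstream (chromosome 10, 99247717 to 99248046). A second one of 4.72 lay 1.44 kb downstream. Its 2 shared peaks upstream had 15.0 and 6.42, against 8.28 and 3.89 in the unstimulated list. Spred2 had 5.54, Ier3, an immediate early gene, 4.36 with 47 tags, Dusp1 3.96 and Dusp5 3.5. All 9 genes kept a qualifying peak when peaks under 150 bp wide were left out (40.9%; 1.54% of all genes). At a −log10 q of 10 or more 5 of them had one (22.7%; 0.589% of all genes), namely Dusp6, Fosb, Ier3, Junb and Spred2. The list's median was 4.75 over 10 peaks.

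TGF-beta targets had 5 of 20 (25%, 8.66 to 49.1), against 2.28% of all genes, but with lower peaks, median 3.74. Any stimulated peak within 100 kb had 15 of the 20 as nearest gene, against 12.2% of all genes. Bhlhe40, a clock-linked repressor, had 4.33 at 1.12 kb, and Thbs1, the gene of thrombospondin-1, 3.74 at 1.05 kb. Ccn1 had 4.17, and Ccn2, which encodes a related matricellular protein, 2.875 at 2.91 kb. The peaks at Ccn1 and Ccn2 were 136 and 142 bp wide. Without peaks under 150 bp the count was 2 of 20 (10%; 1.54% of all genes), and at a −log10 q of 10 or more it was 0 (0.589% of all genes).

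Integrin, matrix and guidance genes had 5 of 24 (20.8%, 7.13 to 42.2), against 2.28% of all genes: Sparc (4.63), Itgav (4.33), Itga1 (4.31), Hspg2 (4.06) and Itga5 (3.0). All of those peaks were 105 to 134 bp wide, so 0 of the 24 genes was left without peaks under 150 bp (1.54% of all genes). Itga3, an integrin gene with 5 qualifying peaks, is not on this list, and 2 of its 5 peaks were under 150 bp. Of the 24 listed genes, 15 were nearest to any stimulated peak within 100 kb, against 12.2% of all genes.

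Endothelial identity genes had 3 of 30 (10%, 2.11 to 26.5): the adhesion molecule gene Pecam1 (5.0, 7.65 kb), the ETS factor gene Erg (3.19, 6.65 kb downstream) and the sialomucin gene Emcn (2.7, 9.83 kb upstream). Flow response and vascular tone genes had 2 of 22 (9.09%, 1.12 to 29.2), Klf6 (5.11) and Pecam1 again. Genes of the signalling chain itself (ligands, receptors and SMADs of both families) had 2 of 30 (6.67%, 0.818 to 22.1). They were Smad1, which encodes a BMP-activated SMAD, with 3.27 and 3.11 at 12.7 and 15.0 kb downstream, and Tgfb2 with 3.86. Cell cycle genes had 1 of 21, Gadd45b (4.6), and the angiopoietin and TIE axis 0 of 10, which allows up to 30.8%. The 2.28% of all genes lies inside the interval of each list in this paragraph. With any stimulated peak within 100 kb counted, nearest genes were 20 of 30 endothelial identity, 12 of 22 flow and 9 of 30 signalling chain genes. For the cell cycle it was 7 of 21 and for the angiopoietin and TIE axis 4 of 10, against 12.2% of all genes.

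Markers of other cell types had 0 of 12 mural, 0 of 12 fibroblast, 0 of 12 leukocyte and 0 of 12 hepatocyte genes. Of 15 pancreatic islet and acinar genes Ctrb1 had a peak (5.01, 110 bp wide, at the caller's lowest background) and of 12 neuron genes Syn1 (5.25, 1.11 kb). Over the 11 pathway lists 41 of 231 genes had a qualifying peak (17.7%, 13.0 to 23.3). Over the marker and housekeeping lists it was 3 of 90 (3.33%, 0.693 to 9.43), an interval that includes the 2.28% of all genes. With any stimulated peak within 100 kb counted, nearest genes were 1 of 12 mural, 3 of 12 fibroblast, 2 of 12 leukocyte and 0 of 12 hepatocyte genes. For pancreatic genes it was 1 of 15, for neuron genes 3 of 12 and for housekeeping genes 3 of 15, against 12.2% of all genes. Lists were not matched on expression, gene length or open chromatin, whose part in these counts was not tested.

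**Figure D2:**
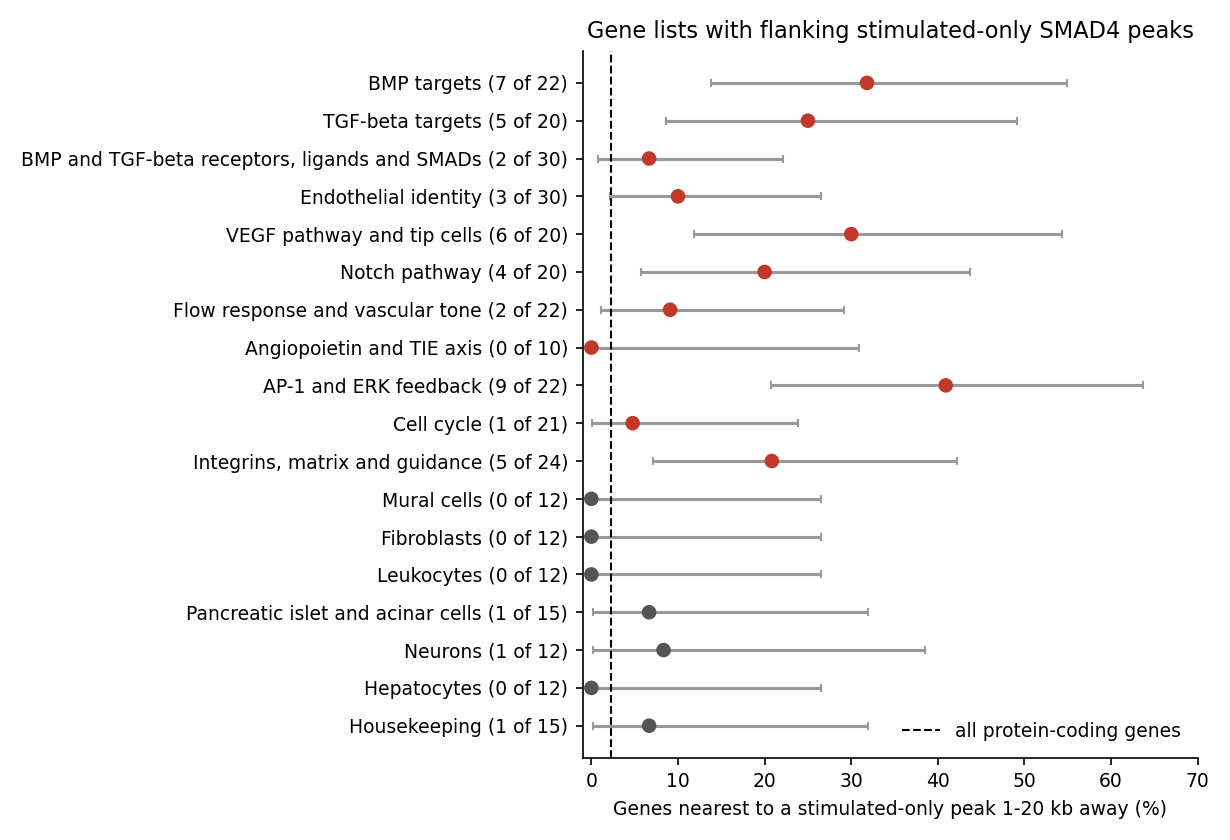
Percentage of each list's genes (x axis) that are nearest to a stimulated-only SMAD4 peak 1 to 20 kb away, with exact binomial 95% intervals. Red points are pathway lists, grey points are marker and housekeeping lists, and the dashed line is the 2.28% of all protein-coding genes. The AP-1 and ERK feedback list is highest at 40.9%.

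Of the 12 peaks with the highest fold enrichment, 9 lay at genes outside these lists. The top one was nearest to Prl3c1, a placental prolactin gene, with 11.6 (chromosome 13, 27206080 to 27206201, 2.40 kb away). The second, at 10.95, was nearest to the olfactory receptor gene Olfr854 (chromosome 9, 19575453 to 19575585). Both were narrow, at 122 and 133 bp, and in both the local background equalled the genome-wide value of 2.19 tags, the lowest the caller uses. Of the 570 peaks 22 had that lowest background, and 14 of these were under 150 bp wide.

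Broader peaks followed. Glis2, a GLI-related zinc finger gene, had 10.95 over 379 bp with 45 tags (chromosome 16, 4586715 to 4587093, 7.34 kb away). Gfra4, a GDNF-family co-receptor gene, had 9.82 over 355 bp with 54 tags (chromosome 2, 131037711 to 131038065, 1.80 kb downstream). Klf9, a Krüppel-like factor gene, had 8.78 over 571 bp with 35 tags (chromosome 19, 23134623 to 23135193, 6.24 kb upstream). That last peak also lies inside the lncRNA gene 2410080I02Rik. The stress-response gene Gadd45g had 7.69 on its 3′ side, Cd7 10.0 at 18.8 kb, 1520401A03Rik 8.14 at 5.13 kb and Tbc1d23 8.0 on its 5′ side. With Hes1, Smad7 and Dusp6 these are the 12 highest, and 3 of the 12 were under 150 bp wide.

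By IP pileup the highest was a peak 3.91 kb downstream of Itprip, with 60 tags (interval 45.8 to 77.2, fold enrichment 6.56). After Smad6 came Dock8, a guanine nucleotide exchange factor gene, with 55 tags and 5.6, then Gfra4. Dusp2, another MAP kinase phosphatase gene, had 48 tags and 5.27 at 2.77 kb upstream. Below it came peaks tied at 47 tags, among them those nearest to Gimap6, Hs1bp3, Ier3, Kdelr2 and Sfi1.

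Compared with the shared peaks in the same 1 to 20 kb range, the 570 were lower and narrower. The rule sorts peaks by overlap, which a wider or higher peak reaches more easily, so this difference is no independent result. Their median pileup was 27 tags, or 0.658 per 1000000 IP tags, against 44 tags or 1.07 for the 212 shared peaks. Median fold enrichment was 4.29 (quartiles 3.57 and 5.12) against 5.82 (4.68 and 6.99), and median width 178 bp against 332 bp. Under 150 bp were 35.3% of the 570 (31.3 to 39.3) and 4.72% of the shared peaks. Among all stimulated-only nuclear peaks, the 570 included, 33.7% were under 150 bp and the median width was 180 bp. Median fold enrichment of the other stimulated-only peaks was 4.25 inside genes (1558 peaks), 4.47 within 1 kb (295), 4.31 at 20 to 100 kb (514) and 4.44 beyond 100 kb (308). Their quartile ranges overlapped broadly with those of the 570. Of the 500 nuclear stimulated peaks with the highest fold enrichment 30 were among the 570. That is 5.26% of the 570, beside 5.18% of all 3245 stimulated-only nuclear peaks, the 570 included. The 500 are 11.6% of all nuclear peaks.

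**Figure D3:**
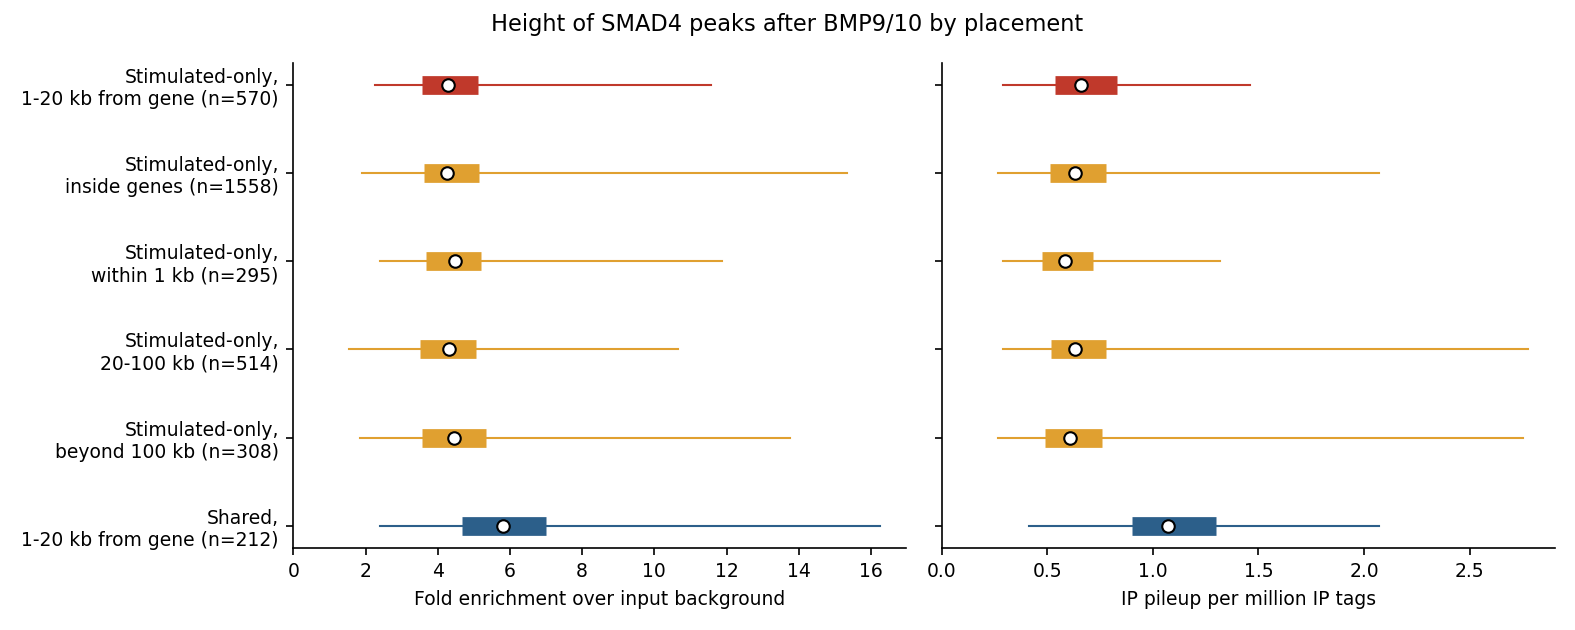
Fold enrichment over input background (left) and IP pileup per 1000000 IP tags (right) of stimulated peaks by placement; dots are medians, thick bars quartiles, thin lines the full range. The 570 peaks (red, median 4.29) lie at the level of the other stimulated-only groups and below the 212 shared peaks of the same distance range (blue, median 5.82).

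How far a site had to differ to be absent from the unstimulated list was computed from the heights. With the site's own local background per tag carried over, a median of 23 tags was needed to reach the weakest p of an unstimulated nuclear peak. Scaled to the unstimulated depth, the height of the 570 was 1.47 times the needed height in the median (quartiles 1.29 and 1.75, range 1.02 to 3.42). At the 1079 shared nuclear peaks, the stimulated pileup per tag was 1.47 times the unstimulated one in the median (quartiles 1.29 and 1.68), and the background ratio was 1.00 (0.821 and 1.29). For 290 of the 570 (50.9%, 46.7 to 55.1) the height over the needed height was below that median of the shared peaks. At 62 it was 2 or more times the needed height, among them Glis2 (3.42), Gfra4 (3.32), Dusp6 and Smad6 (2.70 and 2.68), Hes1 (2.66) and Junb (2.40). At Id3 the ratio was 1.12, at Ccn2 1.05 and at the weaker Dll4 peak upstream 1.03. The calculation covers height alone, since the caller also sets a smallest width, and no peak in either list was narrower than 100 bp. The lists hold no unstimulated signal at the 570 sites themselves, so the ratios of the 570 do not measure a change there.

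**Figure D4:**
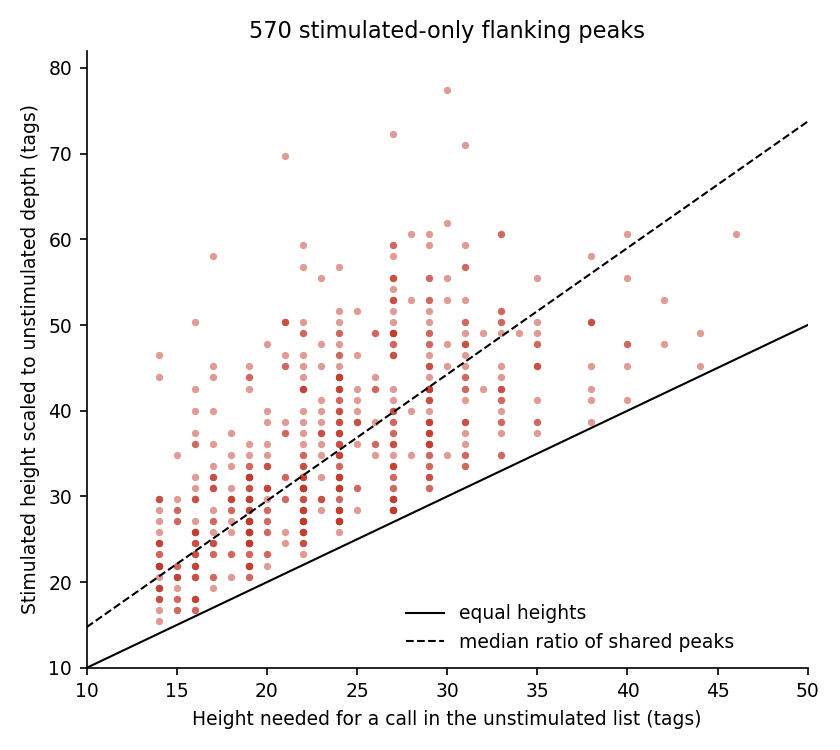
Height of each of the 570 peaks in tags, scaled to the unstimulated depth (y axis), against the height needed for a call in the unstimulated list at the same background per tag (x axis). The solid line marks equal heights and the dashed line the median ratio of shared peaks, 1.47; 290 peaks lie below the dashed line.

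Distance to the gene was spread over the whole range, with a median of 7.79 kb (quartiles 3.72 and 12.8). Per Mb of sequence at each distance there were 1.75 peaks (counting interval 1.51 to 2.01) at 1 to 5 kb, 1.49 (1.27 to 1.74) at 5 to 10 kb and 1.43 (1.24 to 1.63) at 10 to 20 kb. Stimulated-only peaks 20 to 100 kb away had 1.09 per Mb (0.995 to 1.19). Shared peaks went from 0.708 (0.562 to 0.880) at 1 to 5 kb to 0.446 (0.388 to 0.511) at 20 to 100 kb. Within 1 to 20 kb the intervals of neighbouring bins overlapped. Median fold enrichment was 4.26, 4.28 and 4.33 in the 3 bins of the range.

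Just inside the lower bound were peaks near Wdr38, Adgrg3 and Ndel1 (1.018, 1.021 and 1.037 kb; 4.15, 5.11 and 5.47), and just outside it peaks near Plekhb1, Gtf2e2 and Podxl (0.998, 0.990 and 0.980 kb; 4.18, 4.6 and 4.14). At the upper bound Slc16a11, Ctnnb1 and Scn3b (19.979, 19.962 and 19.951 kb) had 4.89, 5.23 and 4.90, and beyond it Dnajb12, Ptgs1 and Hlx (20.383, 20.415 and 20.426 kb) had 3.875, 5.12 and 3.36.

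**Figure D5:**
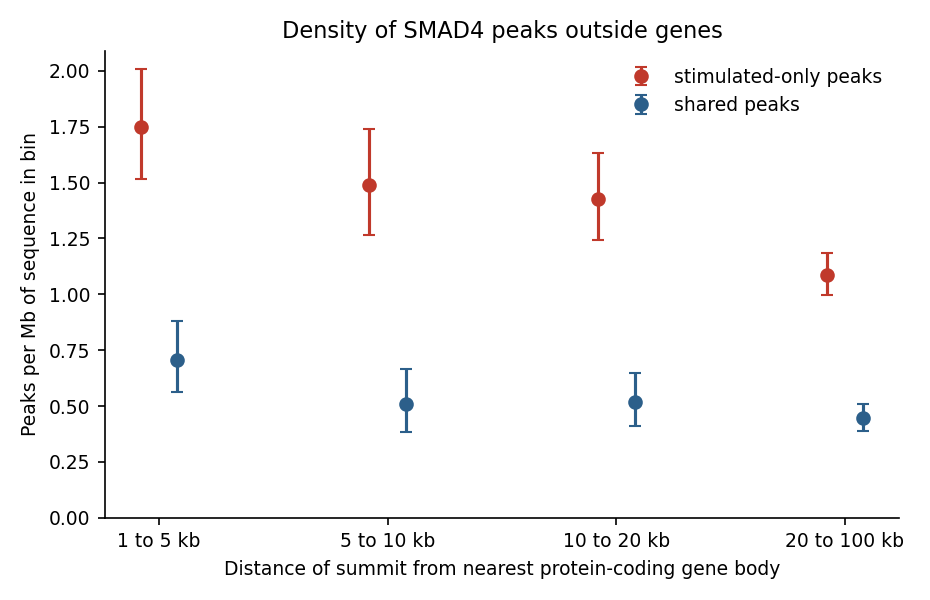
Peaks per Mb of sequence outside protein-coding genes (y axis) by distance of the summit from the nearest gene body (x axis), with exact Poisson 95% intervals. Stimulated-only peaks (red) run from 1.75 at 1 to 5 kb to 1.09 at 20 to 100 kb, and shared peaks (blue) from 0.708 to 0.446.

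The side of the gene was not part of the rule. Of the 448 peaks whose nearest gene has a strand in the RefSeq promoter table, 246 lay on the 5′ side (54.9%, 50.2 to 59.6) and 202 on the 3′ side. The sequence 1 to 20 kb from such genes is itself 53.6% on the 5′ side, which is inside that interval. Shared peaks had 89 of 157 on the 5′ side (56.7%, 48.6 to 64.6). Median fold enrichment was 4.28 on the 5′ and 4.39 on the 3′ side.

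Many of the peaks had company. Another stimulated peak lay within 20 kb of 244 of them (42.8%, 38.7 to 47.0). It was 36.5% of all nuclear stimulated peaks, below that interval, and 58.5% (51.5 to 65.2) of shared peaks in the same distance range. Among other stimulated-only peaks it was 30.6% inside genes and 23.1% within 1 kb. It was 37.4% (33.2 to 41.7) at 20 to 100 kb and 35.1% (29.7 to 40.7) beyond 100 kb, with intervals that overlap that of the 570. A shared peak lay within 20 kb of 103 (18.1%, 15.0 to 21.5), against 15.3% of all nuclear stimulated peaks, which is inside that interval, and 27.8% of the shared peaks in the same distance range. The 570 peaks had 499 nearest genes, 444 with 1 peak, 40 with 2 and 15 with 3 or more. Of these genes 98 (19.6%) were also nearest to a shared peak within 100 kb, and 78 (15.6%) held a stimulated-only peak inside. Any stimulated peak within 100 kb, shared ones included, had 12.2% of all protein-coding genes as nearest gene. Shares of all genes for shared peaks alone, or for peaks inside genes alone, are not given here. For 314 of the 499 genes (62.9%) no other stimulated peak within 100 kb had them as nearest gene.

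Itga3, which encodes the laminin-binding integrin alpha 3, had the largest number. Its 5 peaks lay within 9.50 kb, 2.84 to 12.2 kb upstream (chromosome 11, 95079588 to 95089088), with fold enrichments of 3.14 to 4.875 and 21 to 39 tags, and no shared peak within 50 kb. Rdm1, a DNA repair gene, had 4 within 4.87 kb on chromosome 11 (3.4 to 4.0). Trib3, a pseudokinase gene, had 3 upstream within 3.79 kb (3.82, 5.15 and 5.75), all inside the lncRNA gene Gm14164. Ptk2, the gene of focal adhesion kinase, had 3 within 1.69 kb (3.25 to 4.49). The other genes with 3 were Hes1, Smad7, Dll4, Vps18, Tcim (3.47 to 7.5), Tex44 (5.0 to 7.25), Gclc (4.11 to 5.81), Mdfi (3.22 to 5.125), Sspn (3.96 to 4.79), Eif2b2 (3.08 to 3.54) and Smndc1 (2.25 to 3.08). Peaks of one gene are not replicates of each other.

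RefSeq genes that code for no protein lay over 112 of the 570 summits (19.6%, 16.5 to 23.2), and 106 summits were inside a lncRNA gene. Such genes lay over 20.8% (15.5 to 26.8) of the 212 shared summits in the same distance range and cover 13.0% of its sequence. Named ones were Tbx3os2 beside Tbx3 (6.0), Map2k3os beside Map2k3 (5.5), Wbscr25 near Cldn3 (3.25), Mir22hg near Tlcd2 (2.78), the snRNA gene Rnu2-10 near Arl4d (3.625) and the transcribed pseudogenes Cdk3 near Evpl (3.08) and Pisd-ps1 near Sfi1 (2.82). Inside Mir22hg, the host gene of miR-22, the summit was 0.572 kb from the miRNA hairpin. On chromosome 8, a peak 2.91 kb from Zswim4 (84207900 to 84208079, 2.875 with 22 tags) was 0.483 kb from Mir23a, 0.637 kb from Mir27a and 0.780 kb from Mir24-2, a miRNA cluster known from endothelium. A second, broader Zswim4 peak of 6.90 over 528 bp lay 10.8 kb from Mir23a. In all 7 miRNA genes lay within 5 kb of 4 summits, looked up after the values were seen. For the 4 hairpins nearest to a summit the mature product of the 3p arm is shown with the seed, bases 2 to 8, in capitals. Their 5p products and Mir3074-2, 0.790 kb from the Zswim4 peak, are not shown.

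mmu-miR-22-3p: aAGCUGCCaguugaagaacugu
mmu-miR-23a-3p: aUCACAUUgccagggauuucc
mmu-miR-27a-3p: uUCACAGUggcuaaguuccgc
mmu-miR-24-3p: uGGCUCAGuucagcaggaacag

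The seeds of these 4 differ from one another. The peaks beside them were weak, at 2.78 and 2.875, below the lower quartile of the 570 (3.57). Higher peaks lay 4.78 kb from Mir196a-1 (7.27, nearest to Hoxb9) and 2.48 kb from Mir6973b (the Gfra4 peak).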

How the data were processed

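SMAD4 ChIP-seq of MS1 cells was deposited as 1 narrow peak list per condition. Per the file headers, the authors called peaks with MACS2 2.1.0.20140616 on 2 merged IP libraries against 2 merged inputs, kept 1 tag per position, extended tags to 100 bp and used a q cutoff of 0.01. The band width differed between the lists, 300 bp unstimulated and 200 bp stimulated, and its part in the peak numbers was not tested. The build, mm10, comes from the submitters' processing notes, and no aligner was named in the sources used here. The deposited pileup is a coverage signal in tags, not scaled to depth, and was divided here by the IP tags of its list. The authors' fold enrichment is a ratio of pileup to local background, each plus 1, and the −log10 p and −log10 q values were deposited as the caller wrote them. Solving that ratio gave each peak's local background, from which the Poisson tail came within 1% of the deposited −log10 p for all 570 peaks. Positions are 1-based on mm10.

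Distances run from the summit to the nearest of 21883 RefSeq protein-coding gene bodies (GRCm38.p6), ties kept (2 peaks). Strand and sequence came from the RefSeq promoter table, which matched 397 of the 499 nearest genes. Intervals are exact binomial or exact Poisson at 95%. No test between conditions was run, since the files used here hold 1 pooled list per condition; reads of the single libraries were not analysed here. The planned search for motifs around all summits was not run because no genome was used here. The class assignment was tested on simulated data. Genes were named by rule: the 12 highest by fold enrichment, list genes, genes with 3 or more peaks, peaks at the bounds, the 6 highest by pileup and named non-coding genes. A few of the genes that the rule names are not reported here. Peaks, lists and rules were chosen with earlier results of these data known. Tools were Python 3.11.15, pandas 2.3.3, scipy 1.17.1 and matplotlib 3.10.9.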

Additional observations from a re-analysis of the deposited data

How the results depend on the processing

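Of 49 values recomputed under 9 other settings, 38 stayed within 1.5 times (counts) or inside the interval of the reported value. A −log10 q of at least 10 left 134 peaks at 129 genes, 15 list genes, a median fold enrichment of 5.62 and 30.6% with another stimulated peak within 20 kb, since it removes peaks by construction. Bounds of 2 and 10 kb gave 294 peaks, 274 genes and 23 list genes, also by construction. Without peaks under 150 bp there were 369 peaks, and 37.9% had a neighbour. Within 5 kb in place of 20 kb 21.9% had one. Leaving out peaks at the lowest background, a setting chosen after seeing the data, gave 548. No paired analysis was possible because the peak lists used here merge the libraries of each condition; for the same reason no library was left out in turn. The single libraries were not analysed here.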

Other observations

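Chromosomes differed in how many of these peaks they held per Mb of sequence 1 to 20 kb from genes. The lowest value among chromosomes with any such peak was 0.511 on X (12 peaks), followed by 0.622 on chromosome 4 (13 peaks, among them those at Id3 and Hspg2). The highest were 2.85 on chromosome 12 (36 peaks, among them Fos, Id2 and Pgf), 2.72 on chromosome 15 and 2.68 on chromosome 11. Chromosome Y had 0 in 9.50 Mb, which allows up to 0.316 per Mb at a limit of 3 counts. That limit holds only if all of this sequence could be called and the line carries a Y, neither of which was checked. No difference between chromosomes was tested.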
